A study of Homo sapiens with 24 samples.

Results

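The genes described here are 36 genes of the lysosome, of 58051 genes counted, and they were chosen by name as lysosomal enzymes, lysosomal membrane proteins, subunits of the lysosomal proton pump and the factors that transcribe these genes. All 36 symbols matched an identifier in both count tables. By role they are 6 proteases, 10 hydrolases of glycans and sulfate esters, 5 lipid hydrolases, carriers and activators, 6 membrane proteins, 7 proton pump subunits and 2 transcription factors. The study asked which genes Ocoxin, a nutritional mixture that combines plant extracts with vitamins, minerals and amino acids, alters in cancer cells, and mRNA was sequenced from 24 libraries, 3 control and 3 Ocoxin-treated for each cell line. The cell lines were SW620 for colorectal adenocarcinoma (COAD), BxPC-3 for pancreatic adenocarcinoma (PAAD), LNCaP for prostatic adenocarcinoma (PRAD) and HCC-70 for triple-negative breast cancer (TNBC), and RNA was taken from adherent cells. Treated cells received Ocoxin for 48 h in medium with little serum, at a dilution of 50-fold in PRAD, 500-fold in PAAD and 700-fold in TNBC and COAD, which were the half-maximal inhibitory doses for each line. The labels print the dilution for control libraries too, so the letters C and O in the library names set the groups. Each tumour type is represented by a single established line, the dose differs between lines, and nothing says whether the 3 libraries of a group came from separate cultures, so p-values measure the spread between these libraries, which may be technical.

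Lysosomes are acidic organelles in which proteins, glycans and lipids delivered by endocytosis and autophagy are degraded. The vacuolar proton pump, built of a cytosolic V1 sector that hydrolyses ATP and a membrane V0 sector that passes protons, keeps the lumen acidic so that the hydrolases work, and inherited loss of many of these hydrolases causes storage diseases. TFEB and TFE3 are transcription factors that enter the nucleus when the kinase mTORC1 is inactive and bind a palindromic element with the core CACGTG near the start of many lysosomal genes, so that the genes are often described as a coordinated network. Several cathepsins, the lysosomal proteases, are known to be abundant in tumour cells and can be secreted.

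The element bound by TFEB and TFE3 was searched in RefSeq promoters (GRCh38.p14, 250 bases before to 50 bases after the gene start), which were found for 23 of the 36 genes. The core CACGTG, which reads the same on both strands, was present in 9 of these 23 promoters (39.1%), against 7.43% of all 27305 promoters of the same length. The longer form TCACGTGA, which contains the core and also reads the same on both strands, was present in 6 (26.1%, against 1.04%). The sites below are shown because their genes carry the results that follow or as further examples of the longer form, with the matched letters in capitals, 5′ to 3′ on the strand of the gene. They lie at chr16:67481199-67481228 (minus strand), chr13:113297199-113297228 (plus), chr12:55729172-55729201 (minus), chr19:7522598-7522627 (plus), chr16:88857104-88857133 (minus) and chr17:80101538-80101567 (plus).
ATP6V0D1: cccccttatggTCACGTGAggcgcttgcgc
LAMP1: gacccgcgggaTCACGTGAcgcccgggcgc
CD63: ccgggtaggggcCACGTGgccctggccggg
MCOLN1: gggctaccgggTCACGTGAccgaggcacag
GALNS: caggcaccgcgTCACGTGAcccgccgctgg
GAA: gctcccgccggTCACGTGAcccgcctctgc
One site is shown for each promoter, and those of LAMP1, MCOLN1, GALNS and GAA hold more than a single match. The remaining promoters with the core were those of CTSA, which also holds the longer form, CTSD and NEU1. A match describes the letters in this window only, and binding was not measured.

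Library totals were 25160757 to 34397801 counts in COAD, 31101178 to 34231106 in PAAD, 36863490 to 39009959 in TNBC and 9063968 to 9520969 in PRAD, which was counted in a separate table with another setting. The 36 genes took 0.597% to 0.660% of the counts of a library in TNBC, 0.552% to 0.596% in PAAD, 0.419% to 0.446% in COAD and 0.389% to 0.416% in PRAD. By median, squared differences between replicate libraries were 1.37 to 3.20 times the sampling variance in PRAD and 2.36 to 9.24 times in the other lines. In those lines a fragment mostly gave 2 counts, so the ranges are not comparable. No library was taken for a repeated deposit of another. The defining markers of the lines were checked in control libraries as CPM (counts scaled to the effective library size) per kb of exon. In PRAD the LNCaP markers KLK3 and FOLH1 reached 87.0 and 58.3, and in TNBC PGR was listed at 0 and ESR1 at 0.513, with ERBB2 at 24.6. Of the HCC-70 markers, KRT6B (162 in TNBC against 3.47 in PAAD) and KRT14 (45.3 against 11.2) were higher in TNBC, whereas KRT5 (381 against 783), EGFR (40.8 against 51.1) and TRIM29 (6.35 against 53.9) were higher in PAAD. VIL1 reached 69.3 and LGR5 25.0 in COAD, where CDX1 (0.005) and GPA33 (0.146) were nearly absent. Of the BxPC-3 markers, KRT7 (276 in PAAD against 168 in TNBC) and S100P (170 against 90.8) were higher in PAAD, whereas KRT19 (594 against 669, with 332 in COAD), MUC1 (20.03 against 67.3) and MSLN (36.8 against 41.8) were higher in TNBC, so these lists did not separate both lines.

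In untreated cells the genes differed widely in level, and PSAP, which encodes the precursor of the saposins that help to degrade sphingolipids, led in COAD, PRAD and TNBC. Per kb of exon, PSAP had 130 ± 8.18 CPM in COAD, 80.8 ± 0.695 in PRAD and 387 ± 23.6 in TNBC (SD, n = 3). Next in COAD were the tetraspanin CD63 with 125 ± 7.10 and the carboxypeptidase cathepsin Z (CTSZ) with 99.8 ± 4.47, and the ranges of PSAP and CD63 were within their spread. PAAD was led by CD63 with 186 ± 18.7, CTSZ with 142 ± 9.11 and cathepsin B (CTSB) with 138 ± 11.8, with GRN next at 138 ± 15.7, and CTSZ, CTSB and GRN did not differ beyond their spread. TNBC was led, after PSAP, by the secreted and lysosomal growth factor precursor GRN with 164 ± 5.15 and the membrane glycoprotein LAMP2 with 92.6 ± 6.44, and PRAD by SCARB2, the receptor that carries β-glucocerebrosidase to the lysosome, with 50.4 ± 0.465 and LAMP2 with 43.0 ± 1.14. CTSB differed between lines counted in the same table, with 138 CPM per kb in PAAD against 19.3 in COAD and 25.0 in TNBC.

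At the low end stood SGSH, the heparan sulfate sulfamidase, with 0.655 ± 0.0449 CPM per kb in COAD and 0.282 ± 0.036 in PAAD, and TFEB with 0.926 ± 0.0356 and 0.828 ± 0.176. In COAD the third lowest was the β-mannosidase MANBA with 1.5 ± 0.0384. In TNBC the lowest were the calcium channel MCOLN1 (1.74 ± 0.0985), the hexosaminidase subunit HEXA (3.22 ± 0.18) and the pump subunit ATP6V1B2 (3.96 ± 0.282). In PRAD they were HEXA (2.65 ± 0.145), TFEB (3.45 ± 0.283) and the sialidase NEU1 (3.96 ± 0.312). These levels are listed as a description, with PRAD not comparable with the other lines.

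**Figure D1:**
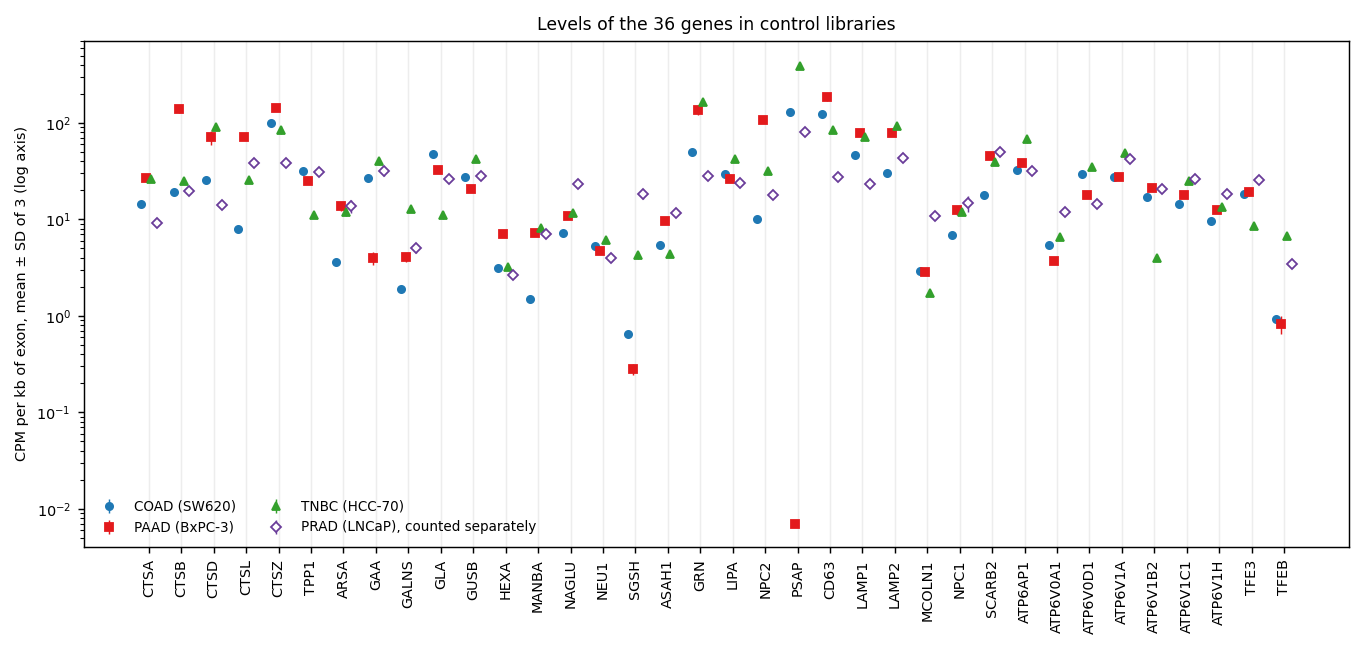
Levels of the 36 genes in control libraries as CPM per kb of exon on a log axis, mean ± SD of 3 libraries per cell line, with PRAD (open diamonds) counted separately. PSAP is the highest gene in COAD, TNBC and PRAD and lies near 0 in PAAD (0.007, drawn without an error bar because its SD exceeds its mean).

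PSAP was almost without counts in PAAD. All 6 BxPC-3 libraries, control and treated, had between 0 and 2 counts, against 12960 to 15671 in COAD, 2258 to 2467 in PRAD and 39600 to 48933 in TNBC. The counts of control and Ocoxin libraries of PAAD overlapped at this floor, and PSAP was not tested there. The genes that lie beside PSAP on chromosome 10 (hg38, 71816298 to 71851375) were also near 0 in PAAD. The immune checkpoint gene VSIR had 0 counts, the sulfotransferase CHST3 0 to 4, ASCC1 0 to 9 and ANAPC16 0 to 2. ANAPC16 had 4680 to 5409 counts in COAD and 4513 to 5290 in TNBC. VSIR was near 0 in PRAD too (3 to 6), with 478 to 646 in COAD and 2415 to 3147 in TNBC. CHST3 had 52 to 100 in COAD, 419 to 565 in PRAD and 1102 to 1412 in TNBC. The genes on either side of the run from VSIR to ANAPC16 were counted in PAAD, with 382 to 591 counts for SLC29A3 and 1359 to 2277 for DDIT4. Of 385 genes with at least 2000 counts in every library of the other lines, 3 had 3 counts or fewer in every PAAD library, and they were PSAP, LAMB2 and TMPRSS2, the last of which is also a marker of LNCaP. A cause was not tested.

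**Figure D2:**
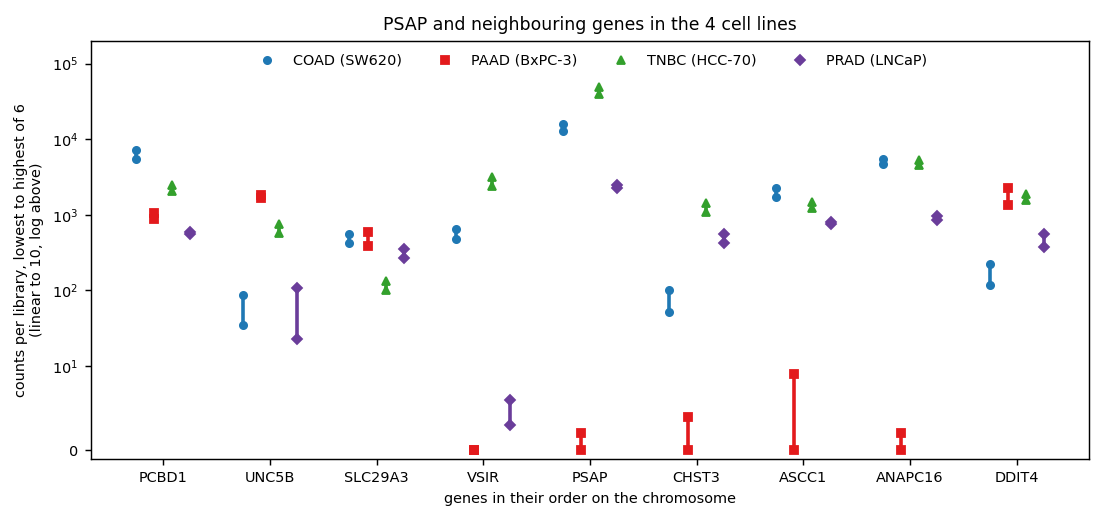
Lowest and highest counts of 6 libraries per cell line for PSAP and its neighbours with at least 100 counts on average in a cell line, in their order on the chromosome (linear to 10 counts, log above). The PAAD libraries are at 0 to 9 counts from VSIR to ANAPC16 and at 382 or more on both sides.

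Ocoxin altered few of the 36 genes, and most of those altered were downregulated genes of TNBC. With an adjusted p under 0.05 (quasi-likelihood F-test of edgeR, Benjamini-Hochberg over all genes tested), 9 of 36 genes were altered in TNBC (25%), where 21% of all genes tested were. In PAAD 2 of 35 were altered (5.71%, background 8.33%), in COAD 1 of 36 (2.78%, background 2.55%) and in PRAD 0 of 36 (background 2.98%). By direction, TNBC had 8 down and 1 up, against 11.3% and 9.65% of all genes. Both PAAD genes and the COAD gene were up, where 4.72% and 1.47% of all genes were up and 3.62% and 1.09% down, and in PRAD 2.4% of all genes were up and 0.58% down. In all, 11 genes were altered in at least 1 line, CTSB alone was altered in 2 lines and with opposite sign, and 25 were altered in none. At an unadjusted p under 0.05 there were 15 genes for TNBC, 13 for PAAD, 9 for COAD and 5 for PRAD, the last being GUSB, TFE3, ATP6V1A, ATP6V1B2 and MANBA. The shares of all genes tested under that p were 33.6%, 22.8%, 16% and 20.8%. DESeq2 called 11, 3, 1 and 0 of these genes and 20.7%, 9.82%, 2.93% and 3.61% of all genes.

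The direction of the small shifts also differed. The median log2 fold change of the 36 genes was −0.07 in TNBC, −0.04 in PRAD, 0.04 in PAAD and 0.04 in COAD, against 0.01, 0.01, 0.00 and −0.01 over all genes tested. In TNBC 27 of 36 values were negative and 9 positive, while 51% of all genes tested were positive. In COAD 24 of 36 were positive (48.6% of all genes), in PAAD 21 of 35 (50.6%) and in PRAD 14 of 36 (52.4%). Control and Ocoxin libraries of TNBC did not overlap for 16 of the genes (38.1% of all genes), 12 lower with Ocoxin (19.8% of all genes) and 4 higher (18.3%). The corresponding counts were 4 lower and 8 higher in COAD (10.4% and 10.2%), 1 lower and 9 higher in PAAD (13.9% and 13.6%) and 6 lower and 2 higher in PRAD (12.4% and 15.2%). Changes ranged from a fall of 23.4% to a rise of 20.9% in TNBC, from −15.5% to 17.6% in COAD, from −10.3% to 17.1% in PRAD and from −17.8% to 75.9% in PAAD. No measure here tells fewer transcripts per cell from fewer cells with the transcript.

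**Figure D3:**
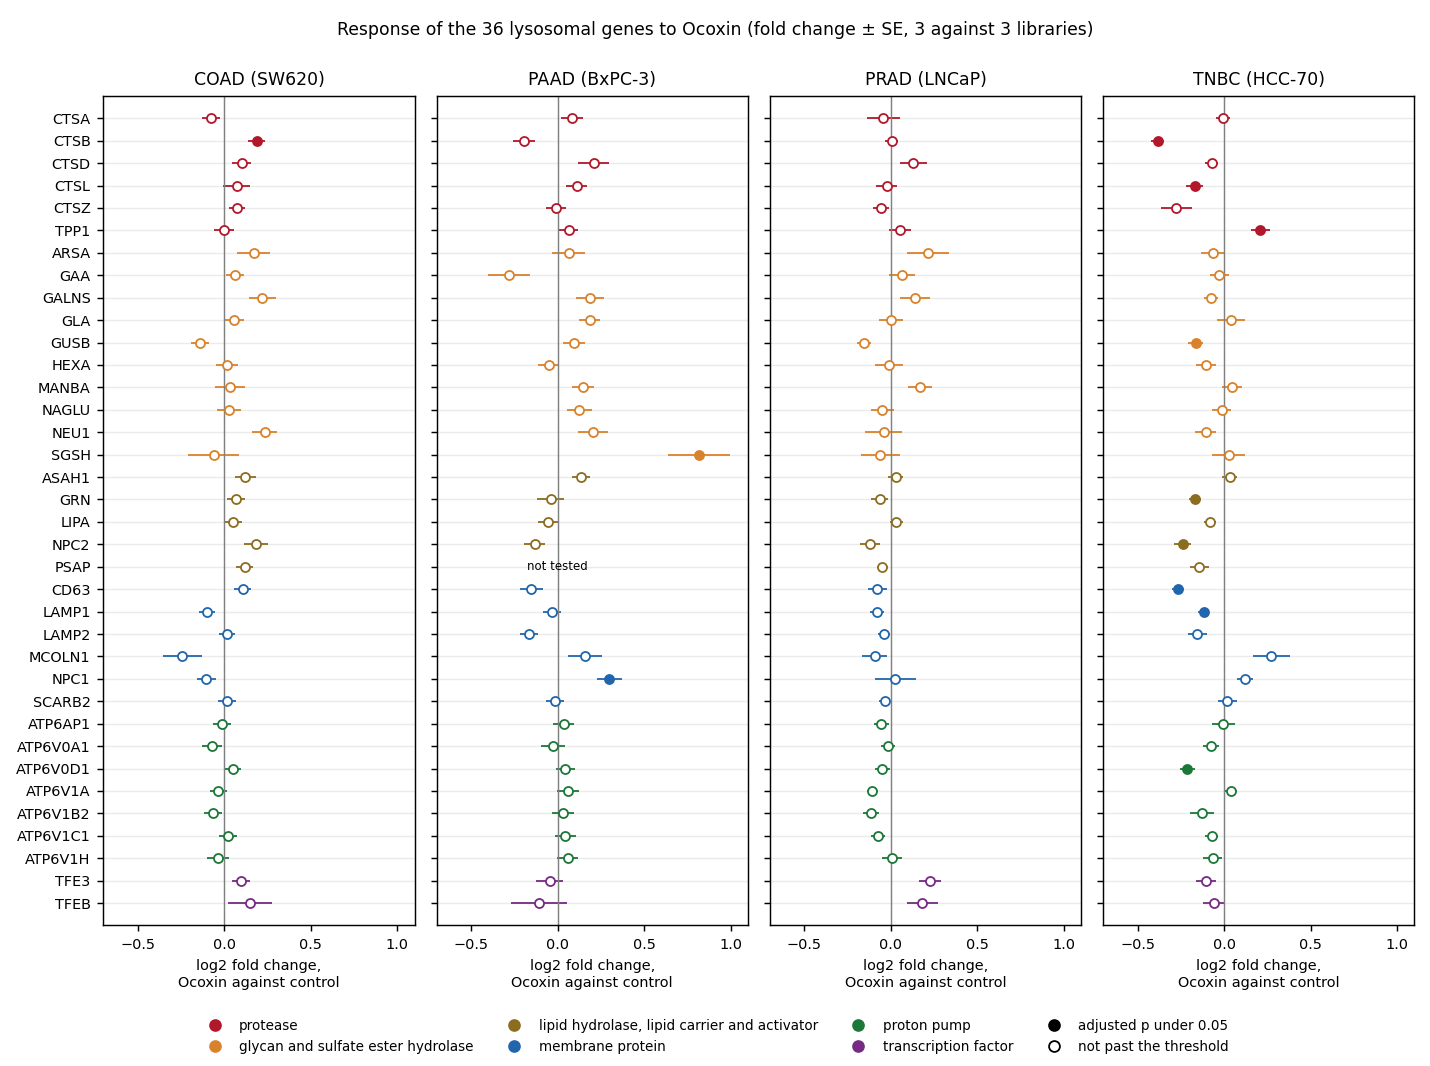
Log2 fold change of Ocoxin against control for the 36 genes in 4 cell lines, with the SE of the fit (3 against 3 libraries), coloured by role and filled where the adjusted p is under 0.05. Filled points number 9 in TNBC, of which 8 lie left of 0, 2 in PAAD, 1 in COAD and 0 in PRAD.

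Among the proteases, CTSB, a cysteine protease with endopeptidase and carboxypeptidase activity (ENSG00000164733, chromosome 8), was downregulated in TNBC with the lowest adjusted p of the 36 genes. Its CPM, scaled within the cell line, was 179, 187 and 179 in control libraries and 141, 138 and 139 with Ocoxin. The groups did not overlap, and the log2 fold change was −0.38 (SE 0.0374, adjusted p = 3.21e-05). In COAD, CTSB went the other way, with 151, 155 and 166 CPM in control libraries and 174, 181 and 183 with Ocoxin. These groups did not overlap either, with a log2 fold change of 0.19 (SE 0.0503), but the adjusted p of 0.04998 was just under the threshold. Leaving out Ocoxin library 2 or 3 or control library 1 or 2 of COAD gave 0.193, 0.0905, 0.272 and 0.232. In PAAD, where CTSB was most abundant, control libraries had 1011, 987 and 868 CPM and Ocoxin libraries 853, 874 and 777, so that the highest Ocoxin library exceeded the lowest control. The log2 fold change was −0.19 (adjusted p = 0.0749), and with the replicate number as a block, for the pairing described under the processing, the adjusted p was 1.79e-05. In PRAD, CTSB stayed at 144 to 149 CPM in control and 143 to 150 with Ocoxin (log2 fold change 0.00, SE 0.0359).

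Cathepsin L (CTSL, ENSG00000135047, chromosome 9, 87725519 to 87731393), another cysteine endopeptidase, was downregulated in TNBC. Control libraries had 60.3, 60.4 and 56.9 CPM and Ocoxin libraries 53.0, 51.6 and 53.1, without overlap, for a log2 fold change of −0.17 (SE 0.048, adjusted p = 0.0236). Without Ocoxin library 1 or 2 or control library 1 or 2, its adjusted p was 0.0682, 0.0937, 0.0887 and 0.0807. TPP1, the tripeptidyl peptidase whose loss causes a neuronal ceroid lipofuscinosis (ENSG00000166340, chromosome 11, 6612763 to 6619461), was the only gene of the 36 upregulated in TNBC with this test. It had 51.5, 50.6 and 56.7 CPM in control and 60.8, 59.3 and 63.5 with Ocoxin, all Ocoxin values being higher (log2 fold change 0.21, SE 0.0553, adjusted p = 0.0179). Without Ocoxin library 1 or control library 1 or 2 the adjusted p was 0.0555, 0.0765 and 0.0782. CTSZ had 155, 165 and 186 CPM in TNBC control libraries and 131, 131 and 156 with Ocoxin, with library 3 the highest in both groups and a slight overlap, and its log2 fold change of −0.28 had an adjusted p of 0.0682, or 2.28e-10 with the block. Leaving out Ocoxin library 3 or control library 1 gave 0.00314 and 0.0422. The aspartic protease CTSD and the serine carboxypeptidase CTSA, which also protects other lysosomal enzymes, were not altered in any line. In PAAD, CTSD had 0.21 with an adjusted p of 0.174, or 0.000421 with the block. Other genes share 52.7% of the exonic bases of CTSD and 28.5% of those of CTSA, so their counts are uncertain.

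**Figure D4:**
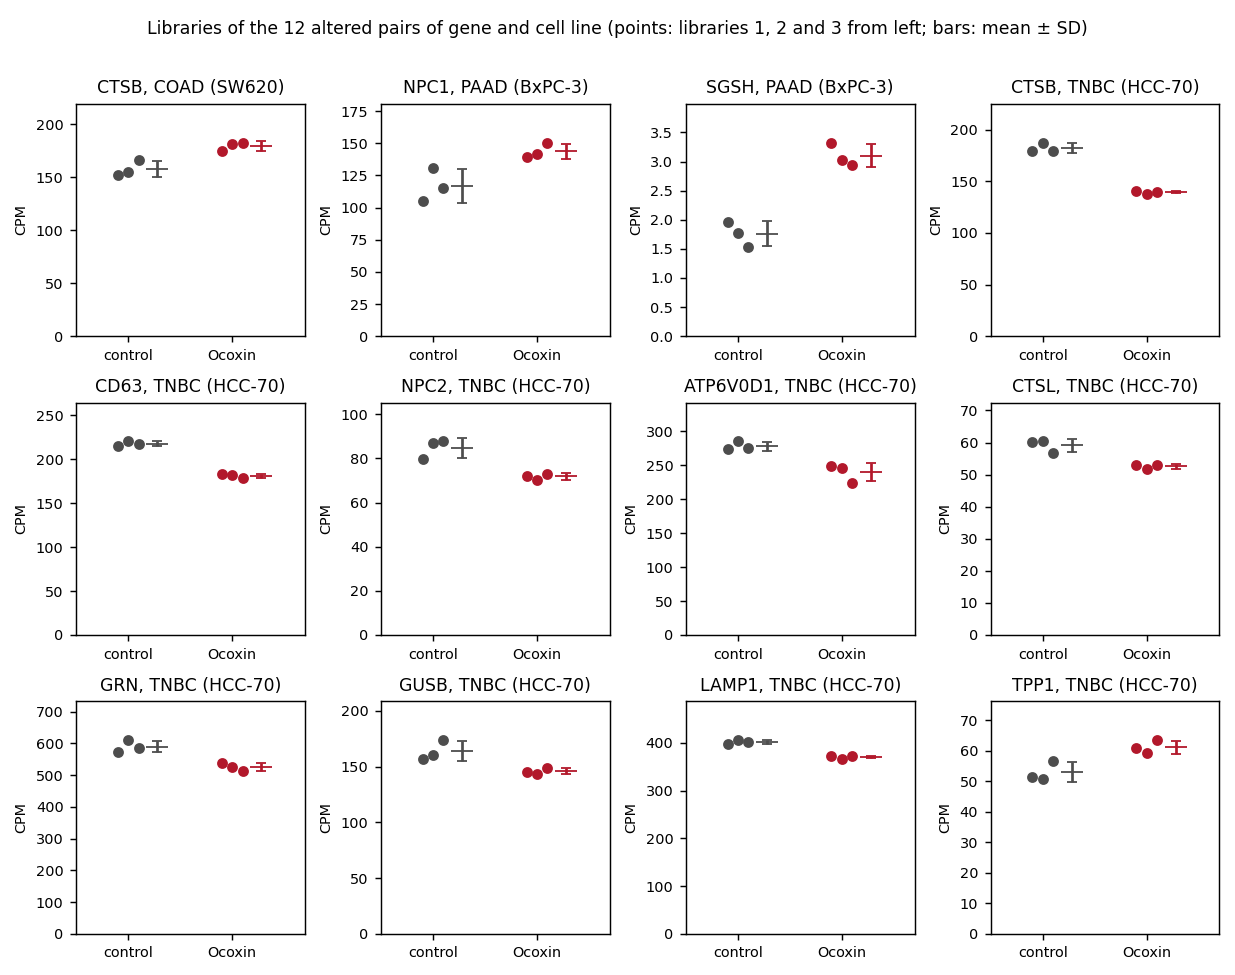
CPM of each library for the 12 altered pairs of gene and cell line, with the mean ± SD of 3 libraries at the side of the points and each axis starting at 0. Control and Ocoxin libraries do not overlap in any panel. The means of CTSB rise in COAD (157 to 179 CPM) and fall in TNBC (182 to 139 CPM).

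The hydrolases of glycans and sulfate esters held a single altered gene in PAAD and in TNBC. In PAAD the heparan sulfamidase SGSH (ENSG00000181523, chromosome 17, 80206716 to 80220923) rose by 75.9%, the largest change among the 36 genes in any line, although from a low level. Control libraries had 1.97, 1.78 and 1.54 CPM and Ocoxin libraries 3.33, 3.03 and 2.95, without overlap (log2 fold change 0.81, SE 0.18, adjusted p = 0.0105). Without Ocoxin library 1 the adjusted p was 0.054. In PRAD and TNBC, where SGSH was measured at 98.7 to 135 CPM and 24.1 to 30.8 CPM, its log2 fold changes were −0.06 and 0.03, and in COAD −0.06. GUSB, the β-glucuronidase that is also used as a reference gene in qPCR (ENSG00000169919, chromosome 7, 65960684 to 65982314), was downregulated in TNBC. It had 156, 161 and 174 CPM in control and 145, 144 and 149 with Ocoxin (log2 fold change −0.16, SE 0.0445, adjusted p = 0.0198), and the adjusted p was 0.0734, 0.0821 and 0.0792 without Ocoxin library 1, Ocoxin library 2 or control library 3.

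GUSB was also lower in every Ocoxin library of COAD and PRAD, without passing the threshold in the fit within a line. In COAD control libraries had 115, 121 and 122 CPM and Ocoxin libraries 109, 110.2 and 106 (log2 fold change −0.14, adjusted p = 0.148). In PRAD the values were 110, 115 and 113 against 100, 100.2 and 102 CPM (−0.16, adjusted p = 0.0764, or 0.0211 with the trend in gene length removed, and altered also in the single fit of all libraries), and in PAAD the fold change was 0.09 (adjusted p = 0.404). Removal of the length trend also rescaled the libraries, and 10% of all genes in PRAD were then altered. With the block, 5 further genes of this role were altered in PAAD, with adjusted p-values from 0.00434 to 0.0384. The α-galactosidase GLA (0.18), the galactosamine-6-sulfatase GALNS (0.19), the sialidase NEU1 (0.20) and MANBA (0.15) were upregulated and the α-glucosidase GAA (−0.28) downregulated, whereas without the block their adjusted p-values ran from 0.0809 to 0.181. NAGLU and the arylsulfatase ARSA were not altered in any line in these fits. HEXA fell in TNBC with the length trend removed (log2 fold change −0.19, adjusted p = 0.0426), and with the block added to that fit. It was not altered in the other fits. Other genes share 16.3% of the exonic bases of HEXA and 12.6% of those of NAGLU, so these counts are uncertain too.

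Of the 5 lipid enzymes, carriers and activators, NPC2 and GRN were downregulated in TNBC. NPC2, which hands cholesterol to NPC1 inside the lysosome (ENSG00000119655, chromosome 14, 74476192 to 74494177), had 79.5, 87.0 and 87.8 CPM in control libraries and 72.2, 70.3 and 73.0 with Ocoxin. All Ocoxin values were lower (log2 fold change −0.24, SE 0.0489, adjusted p = 0.00459). GRN (ENSG00000030582, chromosome 17, 44345086 to 44353102) had 574, 610 and 585 CPM in control and 538, 524 and 513 with Ocoxin, again without overlap (−0.17, SE 0.0353, adjusted p = 0.00535). A single fit of all 24 libraries gave GRN an adjusted p of 0.0525. PSAP in TNBC had 1171, 1202 and 1313 CPM in control and 1067, 1065 and 1202 with Ocoxin, so that the groups overlapped, and its log2 fold change of −0.14 had an adjusted p of 0.0958, or 3.59e-06 with the block. Without Ocoxin library 3, PSAP had an adjusted p of 0.00317. The acid lipase LIPA, which frees cholesterol from its esters, had −0.08 (adjusted p = 0.124, with the block 0.0414), and the acid ceramidase ASAH1 0.03 (adjusted p = 0.648). In COAD all 5 genes of this role had positive log2 fold changes, from 0.05 to 0.18, and none passed the threshold. In PAAD, ASAH1 had 0.14 and NPC2 −0.13, with adjusted p-values of 0.151 and 0.207, or 0.011 and 0.00736 with the block.

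Of the 6 membrane proteins, CD63 and LAMP1 were downregulated in TNBC and NPC1 was upregulated in PAAD. CD63, a tetraspanin of lysosomes and exosomes (ENSG00000135404, chromosome 12, 55725323 to 55729707), had 215, 220.4 and 217 CPM in TNBC control libraries and 183, 181 and 178 with Ocoxin. The separation of the groups was wide relative to their spread (log2 fold change −0.27, SE 0.0348, adjusted p = 0.000264). An antisense gene shares 9.0% of the exonic bases of CD63, and the counting did not use strand. LAMP1, the most widely used marker protein of the lysosomal membrane (ENSG00000185896, chromosome 13, 113297241 to 113323672), had 399, 406 and 403 CPM in control and 372, 367 and 372 with Ocoxin (−0.12, SE 0.0318, adjusted p = 0.0186). Its adjusted p was 0.0665, 0.086 and 0.0555 without Ocoxin library 1, Ocoxin library 2 or control library 2. LAMP2, needed for fusion with autophagosomes and for chaperone-mediated autophagy, had 489, 474 and 540.4 CPM in control and 434, 434 and 483 with Ocoxin, with overlap (−0.15, adjusted p = 0.0779, with the block 6.45e-06). Without Ocoxin library 3 the adjusted p of LAMP2 was 0.00668.

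NPC1, the membrane cholesterol exporter (ENSG00000141458, chromosome 18, 23506184 to 23586898), had 105, 131 and 115 CPM in PAAD control libraries and 139, 141 and 150.5 with Ocoxin. Every Ocoxin library was higher (log2 fold change 0.30, SE 0.0724, adjusted p = 0.0184), and the adjusted p was 0.063 without Ocoxin library 2 and 0.072 without control library 1. In TNBC, NPC1 had 0.12 (adjusted p = 0.0855) and MCOLN1 0.27 (adjusted p = 0.0834), and with the block both were altered, at 0.00544 and 0.0334. Without Ocoxin library 3 of TNBC, NPC1 had an adjusted p of 0.0319. NPC1 and NPC2, which act in the same export step, had fold changes of opposite sign in every line, with NPC1 the positive one in PAAD, TNBC and PRAD (0.03 against −0.12) and NPC2 in COAD (0.18 against −0.10). In PAAD, LAMP2 had 402, 400 and 405 CPM in control and 348, 366 and 362 with Ocoxin, without overlap (−0.16, adjusted p = 0.0541, with the block 0.000368 and with DESeq2 0.0256), and CD63 had −0.15 (0.176, with the block 0.00235). Without control library 3 of PAAD, CD63, CTSB and NPC2 had adjusted p-values of 0.0116, 0.00423 and 0.0442. SCARB2 was within 0.04 of 0 on the log2 scale in every line.

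Adding the replicate block raised the count of altered genes to 13 in PAAD (8 up and 5 down, background 23.1%, or 12.1% up and 11% down) and 15 in TNBC (3 up and 12 down, background 33.9%, or 16.3% and 17.6%), and left 0 in PRAD (background 8.5%). In TNBC 2 of the 3 same-numbered pairs correlated no more than the closest differently numbered libraries did. With the block, CTSB, CD63, LAMP2 and NPC2 fell in both lines and NPC1 rose in both, which is 5 of the 13 genes of PAAD and 5 of the 15 of TNBC. Whether these lists overlap more than lists of their size would was not tested.

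Of the 7 proton pump subunits among the 36 genes, ATP6V0D1, which links the V0 and V1 sectors (ENSG00000159720, chromosome 16, 67438014 to 67481237), was altered, and only in TNBC. Control libraries had 273, 285 and 276 CPM and Ocoxin libraries 249.3, 246 and 225, all lower (log2 fold change −0.21, SE 0.0434, adjusted p = 0.00451). The catalytic subunit ATP6V1A, the nucleotide-binding subunit ATP6V1B2, ATP6V1C1, ATP6V1H, the V0 subunit ATP6V0A1 and the accessory protein ATP6AP1 did not pass the threshold in any line, with or without the block, and their log2 fold changes lay between −0.13 and 0.06. With the length trend removed, ATP6V1A and ATP6V1B2 fell in PRAD (adjusted p = 0.0237 and 0.0296) and ATP6V0A1 in TNBC (0.0312). With the block added to that fit, ATP6AP1, ATP6V1C1 and ATP6V0D1 also fell in PRAD, and ATP6V1B2 and ATP6V1C1 in TNBC. ATP6V1A in TNBC had 240 to 246 CPM in control and 249.1 to 251.02 with Ocoxin, all higher but by 2.83% (adjusted p = 0.437).

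Most other pump genes were altered in TNBC. Of 16 further subunits and assembly proteins tested there, 9 were altered (56.2%), 7 down and 2 up. Among all genes tested in TNBC, 21% were altered, 11.3% down and 9.65% up. ATP6V0E1 (−0.33) and ATP6V0B (−0.29), small subunits of the V0 sector, had the largest falls among those altered, with adjusted p-values of 0.000351 and 0.000264. ATP6V0C had −0.40 but with an SE of 0.454 (adjusted p = 0.582). The 2 that rose were ATP6V1B1, the B subunit found in kidney and other specialised epithelia, and ATP6V0A4, the a subunit with the same distribution. ATP6V1B1 had 79.1, 86.4 and 84.8 CPM in control and 124, 124 and 130 with Ocoxin (log2 fold change 0.59, SE 0.0455, adjusted p = 5.73e-06). ATP6V0A4 had 3.22, 2.57 and 3.14 CPM in control and 4.60, 4.04 and 4.01 with Ocoxin (0.50, adjusted p = 0.0298). The ubiquitous counterparts among the 36 genes, ATP6V1B2 and ATP6V0A1, had −0.13 and −0.08. With all 23 pump genes tested in TNBC, 8 fell and 2 rose, the median log2 fold change was −0.13, and in COAD, PAAD and PRAD the medians were 0.02, 0.03 and −0.05, with 0, 2 and 0 altered. The 2 in PAAD were ATP6V0E2 (0.47) and the accessory protein ATP6AP2 (−0.18). Shares of all genes altered were 2.55% in COAD, 8.33% in PAAD and 2.98% in PRAD.

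**Figure D5:**
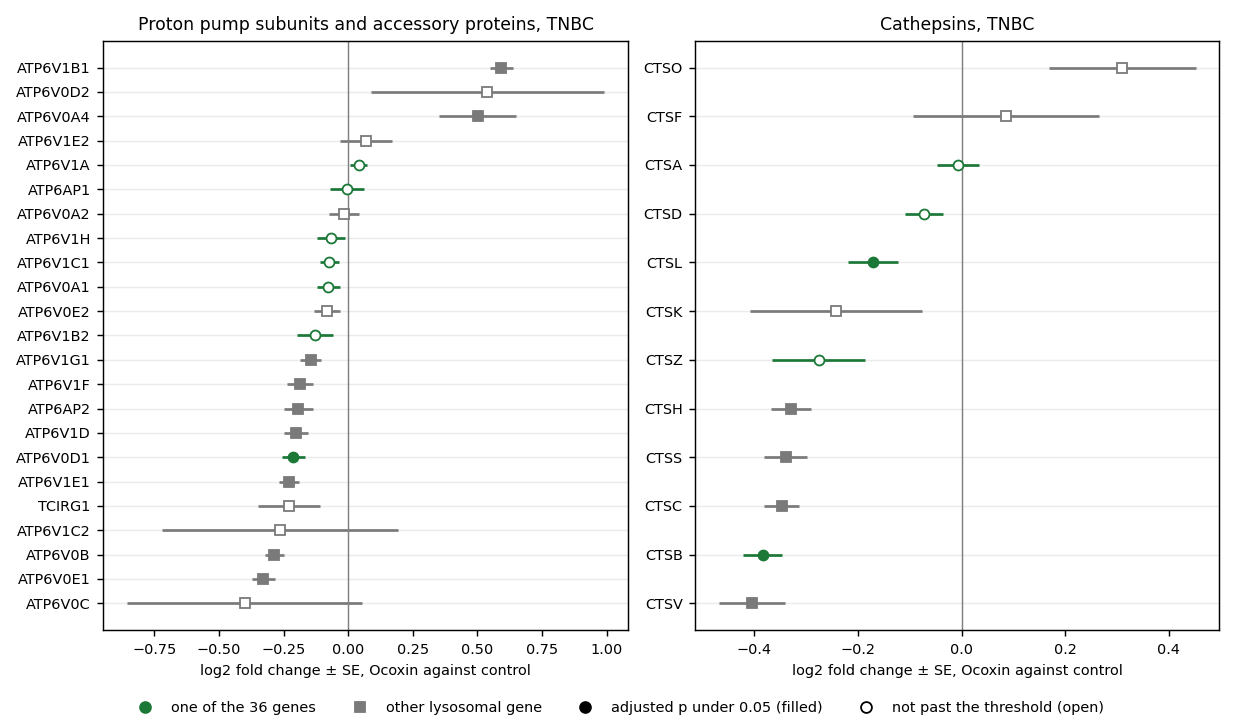
Log2 fold change ± SE in TNBC of the 23 proton pump genes and the 12 cathepsins tested, green circles for the 36 genes and grey squares for the others, filled where the adjusted p is under 0.05. In the pump panel 8 filled points lie left of 0 and 2, ATP6V1B1 and ATP6V0A4, right of it, and in the cathepsin panel all 6 filled points lie left.

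Among all genes tested in TNBC, 11.3% were downregulated and 9.65% upregulated. Of 12 cathepsins tested in TNBC, among the 36 genes and beyond, 6 were downregulated and 0 upregulated, with a median log2 fold change of −0.26. Beside CTSB and CTSL these were CTSV (−0.40, adjusted p = 0.000922), CTSC (−0.35, adjusted p = 2.87e-05), CTSS (−0.34) and CTSH (−0.33), of which the last 2 were added here after their values were seen. CTSC, the dipeptidyl peptidase that activates granule proteases, had 361, 369 and 371 CPM in TNBC control libraries and 294, 289 and 284 with Ocoxin. It also fell in PAAD, from 319, 298 and 297 CPM to 239, 240.4 and 240 (−0.35, adjusted p = 0.000657). In COAD 2 of 10 cathepsins were altered, both up, CTSB and CTSS, the latter at low level with 0.842, 1.23 and 1.12 CPM in control and 2.13, 2.66 and 2.41 with Ocoxin (log2 fold change 1.17, adjusted p = 0.0103). In PRAD 0 of 11 were altered with edgeR, and the median was −0.02. The shares of all genes altered were 2.55% in COAD and 2.98% in PRAD.

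TFEB and TFE3 were not altered in any line, with or without the block, although without the filter on low counts TFE3 in PRAD passed the threshold (adjusted p = 0.0345). In PRAD, TFE3 had 101, 115 and 111 CPM in control and 136, 127 and 120 with Ocoxin, and TFEB 17.8, 20.95 and 19.7 against 22.7, 21.3 and 22.2. Both groups were separated, and the log2 fold changes were 0.23 (SE 0.0643, adjusted p = 0.104) and 0.18 (SE 0.0911, adjusted p = 0.306). In COAD TFE3 had 83.5, 88.3 and 87.6 CPM in control and 94.3, 90.03 and 92.5 with Ocoxin (0.09, adjusted p = 0.399), and TFEB 5.73, 6.02 and 5.47 against 6.31, 6.66 and 6.10 (0.15, adjusted p = 0.637), separated as well. In PAAD, TFE3 had 82.4, 80.0 and 69.2 CPM against 75.7, 80.0 and 68.5 (−0.05, adjusted p = 0.766), and TFEB 4.98, 4.76 and 3.32 against 4.29, 3.91 and 3.90 (−0.11, adjusted p = 0.745), with overlapping groups. In TNBC, TFE3 had 34.4, 36.3 and 35.98 CPM against 35.4, 31.4 and 32.3 (−0.11, adjusted p = 0.248), and TFEB 37.4, 39.2 and 35.9 against 39.2, 33.9 and 34.8 (−0.06, adjusted p = 0.57), again overlapping. These factors are regulated largely through their location in the cell, which mRNA does not measure. In TNBC, 21% of all genes tested were altered, 11.3% down and 9.65% up. There, 3 of the 9 genes with CACGTG in the promoter were altered (ATP6V0D1, LAMP1 and CD63, all down), with a median log2 fold change of −0.08. Of the 14 without it, 4 were down and 1 up, with a median of −0.08. The same medians with and without it were 0.08 and −0.01 for PAAD, 0.06 and 0.06 for COAD and −0.04 and −0.02 for PRAD, and the difference was not tested.

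Whether the response differed between the cell lines was tested directly, as the interaction of cell line and treatment over all 24 libraries, at the dose of each line. The responses of 9 of the 36 genes differed, where 10.9% of 24631 genes did. CTSB differed most, with −0.38 in TNBC, −0.19 in PAAD, 0.00 in PRAD and 0.19 in COAD (adjusted p = 6.74e-06). NPC2 (adjusted p = 0.00267), CD63 (0.00492) and CTSZ (0.0228) likewise had their highest values in COAD (0.18, 0.11 and 0.07) and their lowest in TNBC (−0.24, −0.27 and −0.28). ATP6V0D1 (0.00694) had −0.21 in TNBC and between −0.05 and 0.05 elsewhere, SGSH (0.0102) had 0.81 in PAAD and between −0.06 and 0.03 elsewhere, and GUSB (0.0187) was positive in PAAD alone. MCOLN1 (0.0437) had −0.24 in COAD and 0.27 in TNBC, and PSAP (0.0353) included the PAAD libraries at 0 to 2 counts. Leaving out replicate 1 of every group left 4 genes, leaving out replicate 2 left CTSB alone, and leaving out replicate 3 gave 12, while the share of all genes moved to 4.37%, 1.27% and 13.5%. Without PRAD, PSAP and MCOLN1 had adjusted p-values of 0.051 and 0.0592.

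Beyond these genes, 101 further lysosomal genes in 5 lists were followed. Of those tested, 34 of 95 were altered in TNBC, 10 up and 24 down (35.8%). PAAD had 12 of 93 (12.9%), 6 up and 6 down, COAD 6 of 92 (6.52%), all up, and PRAD 2 of 88 (2.27%), both down. Of all genes tested, 21% were altered in TNBC (9.65% up and 11.3% down), 8.33% in PAAD, 2.55% in COAD and 2.98% in PRAD. These shares apply to each list below. Among other hydrolases, 11 of 31 were altered in TNBC, 3 of 31 in PAAD, 4 of 29 in COAD and 0 of 28 in PRAD. The acid sphingomyelinase SMPD1 rose in COAD (0.37, adjusted p = 0.0111) and in PAAD (0.37, adjusted p = 0.0168), the iduronidase IDUA rose in PAAD (0.56, adjusted p = 0.0316), and the galactosylceramidase GALC rose in TNBC, from 3.06, 3.07 and 3.35 CPM to 5.33, 6.08 and 5.69 (0.85, adjusted p = 0.000707), as did ARSG (0.49, adjusted p = 0.014). Among other membrane proteins, 1 of 20 was altered in COAD (LAMP3, 1.30), 1 of 20 in PAAD (LAPTM4A, −0.21), 0 of 19 in PRAD and 5 of 19 in TNBC, where SIDT2 rose (0.19) and LAPTM4B (−0.26) and SLC17A5 (−0.26), the sialic acid exporter, fell.

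Genes that sort enzymes to the lysosome were altered in 5 of 10 cases in TNBC, 2 of 10 in PAAD, 1 of 10 in PRAD and 0 of 10 in COAD. The shares of all genes in these lines were 21%, 8.33%, 2.98% and 2.55%. In TNBC, GNPTAB, which makes the mannose 6-phosphate tag (0.21, adjusted p = 0.0021), and its receptor IGF2R (0.16, adjusted p = 0.0282) rose, while the sulfatase activator SUMF1 (−0.16) and the adaptor GGA2 (−0.14) fell. SUMF1 fell in PAAD as well (−0.46, adjusted p = 0.00245), where the sorting receptor SORT1 rose (0.21, adjusted p = 0.0411), and GGA2 fell in PRAD (−0.24, adjusted p = 0.0194). In the list of relatives, regulators and further targets of TFEB, 4 of 19 were altered in TNBC, 4 of 19 in PAAD, 1 of 19 in PRAD and 1 of 19 in COAD. These were 21.1%, 21.1%, 5.26% and 5.26%, against 21%, 8.33%, 2.98% and 2.55% of all genes. The autophagy receptor SQSTM1 rose in COAD (0.23, adjusted p = 0.0149) and PAAD (0.29, adjusted p = 0.00969), and FLCN, which acts on TFEB and TFE3 through the Rag GTPases, rose in PAAD (0.34) and TNBC (0.31). GPNMB, a glycoprotein induced by lysosomal stress, fell in PAAD from 14.2, 14.4 and 14.5 CPM to 7.65, 8.13 and 5.345 (−1.03, adjusted p = 0.000131). LAMTOR5 fell in PAAD (−0.26) and TNBC (−0.29), RRAGA fell in TNBC (−0.30) and UVRAG rose there (0.17), and FNIP2 fell in PRAD (−0.33, adjusted p = 0.0195).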

How the data were processed

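Per the labels and the study's methods, polyadenylated RNA of 24 libraries was sequenced from stranded kits. The authors used fastp for trimming, STAR for alignment to hg38, picard to drop PCR duplicates and featureCounts 2.0.3 to count reads on exons. The deposited values are raw counts per gene, in a table of COAD, PAAD and TNBC and another of PRAD. Neither used strand. For PRAD the paired-end option was off, and in the other table a fragment mostly gave 2 counts, so levels were not compared between tables. The annotation release is not given in the sources used here. No column of counts was left without a sample (0 unmatched).

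Genes passing filterByExpr were scaled with TMM and tested within each cell line with edgeR 4.0.16 in R 4.3.3 (robust quasi-likelihood F-test, two-sided), and p-values were adjusted by Benjamini-Hochberg across the genes tested. SE was the fold change divided by the square root of F. The study's methods name DESeq2, used here (1.42.0) as an alternative. An exact permutation test of 3 against 3 cannot go below 0.1. The code was tested on simulated data with planted changes of at least 1.5-fold, which is larger than most changes of the 36 genes. CPM are counts per unit of TMM-scaled library size within a cell line, or within a table where given per kb.

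Replicate numbers were taken to pair libraries in PAAD, PRAD and TNBC. Over genes with a mean of at least 50 counts, deviations of same-numbered libraries correlated by at least 0.171, 0.168 and 0.202, against 0.058 in COAD. The highest correlation between differently numbered libraries was 0.123, 0.134 and 0.216, so in TNBC 2 of the 3 pairs (0.202 and 0.214) did not exceed it. Over all genes tested the lowest values were 0.017, 0.0868, 0.0544 and −0.00778, so this pairing rests on leaving out low counts, and it comes from the data and not from the labels.

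Named with values in every library were the altered genes, TFEB and TFE3. Named with fold changes were genes whose call depends on the block, and per other list and line up to 2 altered genes with the largest rise and 2 with the largest fall. Also named were the 3 highest and 3 lowest levels per line. The 36 genes and the lists were chosen with earlier results of these data known. Alternatives were DESeq2, DESeq2 size factors, no filter, the block, a single fit, removal of each library's trend with gene length (spline with 5 degrees of freedom) with and without the block, halved counts, an adjusted p under 0.01, at least 1.5-fold, and each library left out. The length trend included an intercept, so removing it also rescaled each library by its mean deviation over genes on the log scale.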

Additional observations from a re-analysis of the deposited data

Results flagged for a closer look

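The responses of 9 genes to Ocoxin differed between the cell lines by the test of the interaction of cell line and treatment (edgeR, adjusted over all genes tested, doses differing between lines). The adjusted p was 6.74e-06 for CTSB, 0.00267 for NPC2, 0.00492 for CD63, 0.00694 for ATP6V0D1, 0.0102 for SGSH, 0.0187 for GUSB, 0.0228 for CTSZ, 0.0353 for PSAP and 0.0437 for MCOLN1. CTSB was the only one of the 9 that passed the threshold in each alternative run for this test. PSAP rests in part on PAAD libraries of 0 to 2 counts.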

How the results depend on the processing

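The 5 genes CTSB, CD63, NPC2, ATP6V0D1 and GRN passed the threshold in TNBC in every fit run except GRN in the single fit of all 24 libraries, although none changed by 1.5-fold. The counts depended more on the setting. In COAD (1 altered, up) there were 0 in the single fit, after removal of the length trend, at an adjusted p under 0.01 and at 1.5-fold. The shares of all genes there were 1.17%, 2.57%, 0.81% and 0.589%. In PAAD (2 altered, up) there were 4 without the filter (1 down). The single fit and removal of the length trend each gave 4 (2 down). DESeq2 and halved counts each gave 3 (1 down). At 0.01 there were 0 and at 1.5-fold 1. In the same order 6%, 6.91%, 9.68%, 9.82%, 9.33%, 3.29% and 1.66% of all genes were altered. In PRAD (0) there was 1 up without the filter (TFE3), 1 down in the single fit (GUSB) and 4 down without the length trend. The 4 were ATP6V1A, GUSB, ATP6V1B2 and PSAP. Of all genes 3.28%, 4.05% and 10% were altered in these runs. In TNBC (9, 1 up and 8 down) there were 5 at 0.01, all down with 0 up, and 0 at 1.5-fold. The shares of all genes were 10.2% and 2.79%. With the replicate block there were 7 in COAD, where the libraries were not taken as paired (6 up, 1 down), 13 in PAAD (8 and 5) and 15 in TNBC (3 and 12), and 0 in PRAD as without it. The block altered 10.9%, 23.1%, 33.9% and 8.5% of all genes in that order. Block and length trend together gave 6 (4 and 2), 11 (6 and 5), 11 in PRAD, all down, and 19 (2 and 17), with 12.4%, 22.8%, 22.4% and 32.5% of all genes. Median log2 fold changes without the length trend were −0.098 in TNBC, −0.111 in PRAD, 0.0235 in PAAD and 0.0225 in COAD, and with the block too they were −0.098, −0.111 and 0.0243 for the first 3 of these lines. Over all genes the medians without the length trend were −0.01, −0.07, −0.01 and −0.02 in the same order of lines. In PRAD the median of all genes thus moved down too. The trend was fitted with an intercept, so its removal also rescaled each library by its mean deviation over genes. How much of the move came from this rescaling was not tested.

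Leaving out each library gave 0 to 2 altered in COAD (0 to 2 up), 1 to 5 in PAAD (1 to 2 up, 0 to 3 down) and 5 to 13 in TNBC (0 to 2 up, 5 to 11 down), with medians of 0.0284 to 0.0616 in COAD and 0.0207 to 0.0636 in PAAD. The share of all genes altered in these runs was 0.669% to 4.33% in COAD, 3.64% to 9.77% in PAAD and 12.9% to 21.8% in TNBC. In TNBC the 5 came without Ocoxin library 1 (12.9% of all genes). There were 6 without Ocoxin library 2 (13.1%) or control library 2 (12.9%). Of the other lysosomal genes there were 13, 29 and 8 altered with the block in COAD, PAAD and PRAD, and 12, 28 and 24 with the length trend removed too. At 0.01 there were 0, 4, 0 and 15, and at 1.5-fold 2, 1, 0 and 2. The shares of all genes were 0.81%, 3.29%, 0.0293% and 10.2%, and at 1.5-fold 0.589%, 1.66%, 1.4% and 2.79%. In PRAD there were 4 without the filter, 7 in the single fit and 5 without the length trend. Leaving out libraries gave 18 to 34 in TNBC, 3 to 12 in PAAD, 0 to 8 in COAD and 0 to 2 in PRAD. For PRAD the share of all genes in these runs was 0.0173% to 2.28%. Responses that differed between lines numbered 20 with the block (23.3% of all genes), 4 at 0.01 (5.32%) and 1 to 12 with a replicate left out (1.27% to 13.5%). TFE3 in PAAD, never past the threshold, ranged from −0.124 to 0.0128 with a library left out, and was positive without Ocoxin library 3 (0.0128) or control library 1 (0.0023). PRAD had the lowest totals and so the widest counting error.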

Other observations

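LAMP3, a lysosomal membrane glycoprotein of the other lists, had 1 count in each PRAD control library and 83, 20 and 16 counts in the Ocoxin libraries, with 1 library far above the others. It was named after its values were seen. With edgeR its adjusted p was 0.051, and with DESeq2 5.23e-05. In COAD, LAMP3 had 0.777, 0.876 and 0.497 CPM in control libraries and 1.56, 1.701 and 2.06 with Ocoxin (log2 fold change 1.30, adjusted p = 0.0183).

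The summed share of counts taken by the 36 genes was 0.6243% to 0.6596% in TNBC control libraries and 0.597% to 0.6237% with Ocoxin, narrowly without overlap. In COAD it was 0.419% to 0.437% in control and 0.443% to 0.446% with Ocoxin, also without overlap and in the other direction. In PAAD and PRAD the groups overlapped. The sum is weighted to the most abundant genes, PSAP above all in TNBC and COAD.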
